A study of Mus musculus with 8 samples.

Results

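Dnmt1, Uhrf1, Dnmt3a, Dnmt3b, Tet1, Tet2 and Tet3 were followed as the writers and erasers of DNA methylation. They were taken by symbol from a table of 12294 genes, and all 7 were measured. Expression had been read by QuantSeq, which sequences the 3′ ends of polyadenylated transcripts, in cKit+ CD11b- leukemic progenitors recovered from transplanted mice. The mice had been given AG120 together with AZA (AG120_AZA), AZA, AG120 or vehicle for 5 days, with 2 libraries in each of 4 groups. AG120 (ivosidenib) inhibits mutant IDH1, and AZA (azacitidine) is a cytidine analogue that traps DNA methyltransferases on DNA. All 4 groups carry the leukemia called I1DN, which the series title ties to mutant IDH1. The labels do not expand that name, and they do not say whether Dnmt3a or Tet2 is itself altered in these cells. They also leave out doses, mouse strain and age, and state no separate mouse for each library. The p-values therefore rest on the spread among libraries, which may be technical.

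DNA methylation is laid down on cytosines of CpG sites. Dnmt1 copies it onto the new strand after replication, guided by Uhrf1, which binds hemimethylated CpG, whereas Dnmt3a and Dnmt3b methylate unmodified sites. The TET dioxygenases Tet1, Tet2 and Tet3 oxidise methylcytosine and so start its removal. They use 2-oxoglutarate and are inhibited by 2-hydroxyglutarate, the product of mutant IDH1. In blood, DNMT3A and TET2 are among the genes most often mutated in human acute myeloid leukemia.

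The 7 genes lie on 7 chromosomes of the mm10 build, by the GENCODE M21 spans. Dnmt1 is at chr9:20907209-20959888 on the minus strand, Uhrf1 at chr17:56303321-56323486 on the plus strand, Dnmt3a at chr12:3806007-3914443 on the plus strand and Dnmt3b at chr2:153649450-153687730 on the plus strand. Tet1 is at chr10:62804570-62908996, Tet2 at chr3:133463679-133545139 and Tet3 at chr6:83362373-83459084, all on the minus strand. Antisense transcripts overlap Dnmt3a (Dnmt3aos), Dnmt3b (Dnmt3bos) and Tet2 (Gm42567) in the annotation. None of the genes overlapping a member is in the table, and the sources used here do not say whether reads were counted by strand.

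RefSeq (GRCm38.p6) lists 12 start windows of 300 bases for the 7 genes, each running from 250 bases before the start to 50 after it. They hold from 2 to 57 CpG sites, against a median of 7 over 32851 such windows. Shown are 4 of them, since CpG sites are the substrate of these enzymes: for Dnmt1, Uhrf1 and the upstream end of Dnmt3a the window with the most CpG sites, and the internal window of Dnmt3a. Not shown are the other Dnmt3a window at the upstream end, with 46 CpG sites, those of Dnmt1 with 2 and 12, and that of Uhrf1 with 12. The windows of Dnmt3b, Tet1, Tet2 and Tet3, with 30, 17, 57 and 22 CpG sites, are not shown either. CpG sites are in capitals, and each sequence runs 5′ to 3′ on the strand of its gene.
Dnmt3a, upstream start with the most CpG sites, chr12:3806910-3807209, plus strand: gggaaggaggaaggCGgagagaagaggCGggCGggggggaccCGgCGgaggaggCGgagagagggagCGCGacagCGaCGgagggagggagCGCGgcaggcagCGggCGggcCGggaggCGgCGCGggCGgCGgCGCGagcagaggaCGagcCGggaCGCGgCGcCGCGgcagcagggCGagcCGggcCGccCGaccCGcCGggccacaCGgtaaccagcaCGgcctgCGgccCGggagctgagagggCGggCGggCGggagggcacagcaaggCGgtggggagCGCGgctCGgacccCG
Dnmt3a, internal start, chr12:3891494-3891793, plus strand: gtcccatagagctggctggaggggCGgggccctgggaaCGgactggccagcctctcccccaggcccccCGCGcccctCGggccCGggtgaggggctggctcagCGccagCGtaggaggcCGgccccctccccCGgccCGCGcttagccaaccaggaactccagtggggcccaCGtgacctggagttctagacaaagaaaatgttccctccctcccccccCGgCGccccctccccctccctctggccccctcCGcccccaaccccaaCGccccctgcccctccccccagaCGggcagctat
Dnmt1, start with the most CpG sites, chr9:20952574-20952873, minus strand: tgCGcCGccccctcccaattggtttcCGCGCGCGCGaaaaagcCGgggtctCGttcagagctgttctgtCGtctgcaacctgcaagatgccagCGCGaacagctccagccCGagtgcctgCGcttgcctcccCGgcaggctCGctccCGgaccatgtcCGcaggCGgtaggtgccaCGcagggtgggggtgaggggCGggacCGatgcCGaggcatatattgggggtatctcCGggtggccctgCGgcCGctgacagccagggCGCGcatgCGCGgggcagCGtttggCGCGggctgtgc
Uhrf1, start with the most CpG sites, chr17:56304063-56304362, plus strand: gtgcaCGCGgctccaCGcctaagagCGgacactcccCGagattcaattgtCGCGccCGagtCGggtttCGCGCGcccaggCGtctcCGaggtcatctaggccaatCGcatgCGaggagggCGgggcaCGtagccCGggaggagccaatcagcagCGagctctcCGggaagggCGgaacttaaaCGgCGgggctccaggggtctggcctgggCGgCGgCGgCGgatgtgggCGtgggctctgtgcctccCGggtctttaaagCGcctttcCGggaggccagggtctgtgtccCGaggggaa

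The upstream Dnmt3a window shown holds 47 CpG sites, more than 98.6% of all windows, and the internal one, from which a shorter Dnmt3a isoform is made, holds 18, more than 70.3%. The Dnmt1 and Uhrf1 windows hold 33 each, more than 91.4%. A 3′-end read does not tell from which start a transcript came, so the upstream and internal products of Dnmt3a were measured as 1 value. The words TTTCCCGC, TTTGGCGC, TTTCGCGC and TTTGCCGC, the form bound by E2F factors of the cell cycle, were searched on both strands. They occur in the Dnmt1 and Uhrf1 windows shown, in no other member window, and in 2.26% of all windows.

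Values are log2 CPM (counts scaled to a common library total) as deposited, already scaled to nearly 1 distribution in every library, so library depth is unknown and each library has a maximum of 13.37. In bulk libraries fewer cells of a type and less RNA per cell cannot be told apart. The sort marker Kit stood between 4.26 and 6.65 log2 CPM and Itgam, which encodes CD11b, between 2.10 and 4.53. The 12 neutrophil markers summed to between 10.08 and 13.94 log2 CPM in these CD11b- cells. Limma called 719 of 12294 genes (5.85%) with AG120 over both AZA levels and 0 with AZA over both AG120 levels, where 761 had an unadjusted p below 0.05. Here and below a gene is called at an adjusted p below 0.05 over all 12294 genes, and a difference is the group named first minus the other.

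Levels of the 7 genes spanned a wide range. Because QuantSeq reads only transcript ends, gene length does not enter these levels. Uhrf1 had the highest mean over the 8 libraries, 8.56 log2 CPM, above 96.6% of genes, followed by Dnmt1 at 7.81, above 93.6%. Dnmt3a averaged 5.96, Tet2 4.17, Dnmt3b 3.77 and Tet3 3.52 log2 CPM. Tet1 averaged 0.50 log2 CPM, above 9.24% of genes. If the scaling kept the order of read counts within a library, Tet1 rested on at least 2 to 24 reads above the lowest class per library, against at least 911 to 1369 for Dnmt1, so Tet1 is the least certain of the 7.

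**Figure D1:**
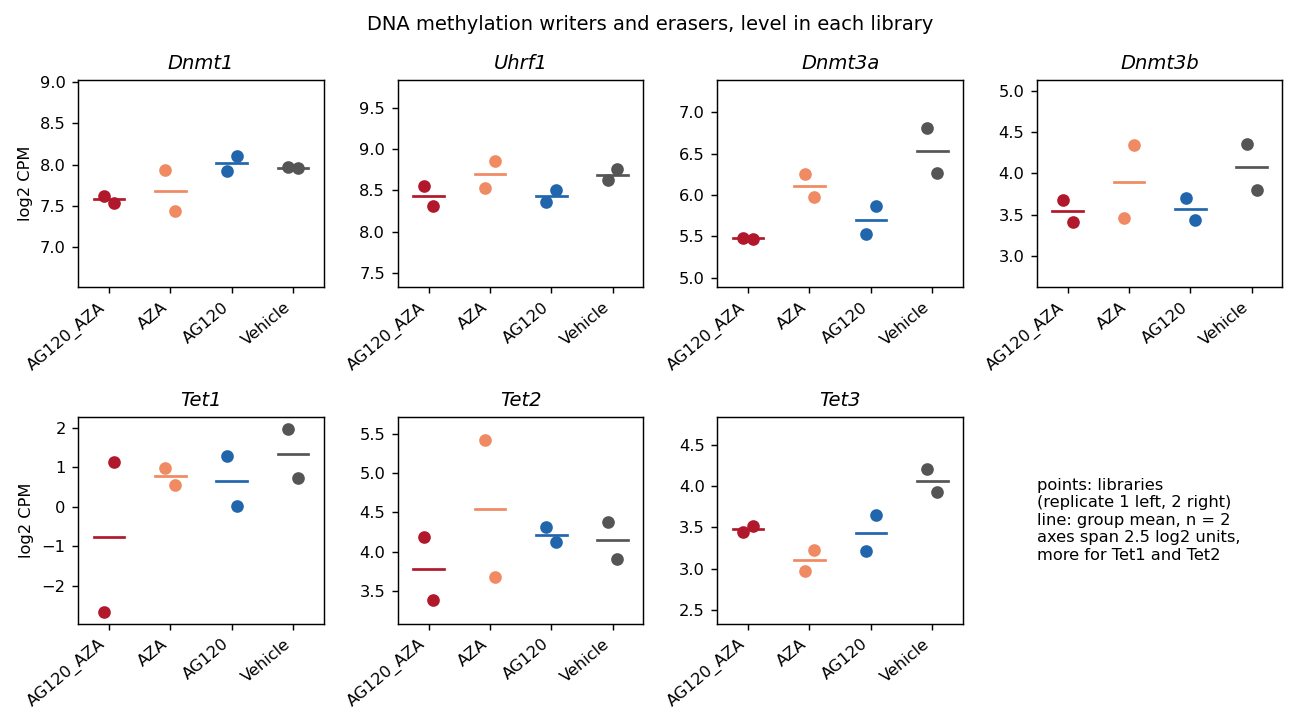
Level in log2 CPM of each of the 7 genes in each of the 8 libraries, by group. A line marks the group mean of 2 libraries. The axes of the genes differ in position, and those of Tet1 and Tet2 also span a wider range. The 4 Dnmt3a points of the AG120_AZA and AG120 groups lie between 5.47 and 5.87, below the 4 points of the AZA and vehicle groups, which lie between 5.97 and 6.81.

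Neither maintenance gene passed the test in any comparison. Dnmt1 stood at 7.62 and 7.54 log2 CPM in AG120_AZA, 7.93 and 7.44 in AZA, 7.92 and 8.11 in AG120, and 7.97 and 7.96 in vehicle. Both AG120_AZA libraries lay below both AG120 libraries and both vehicle libraries. Both AZA libraries also lay below both vehicle libraries, but 1 of them only just (7.93 against 7.96). Against vehicle, 23.9% of all genes were lower without overlap in AG120_AZA and 15.3% in AZA. The share for AG120_AZA against AG120 is not given here. With AZA over both AG120 levels Dnmt1 averaged 7.63 ± 0.21 log2 CPM, against 7.99 ± 0.08 without AZA (SD, n = 4 each). That difference of -0.36 ± 0.14 (SE) did not pass in limma (adjusted p = 0.771), and its 95% interval ran from -0.68 to -0.04. With AG120 over both AZA levels the Dnmt1 difference was -0.03, with an interval from -0.34 to 0.29.

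Uhrf1, the hemimethylated CpG reader, stood at 8.55 and 8.31 log2 CPM in AG120_AZA, 8.53 and 8.86 in AZA, 8.36 and 8.50 in AG120, and 8.62 and 8.76 in vehicle. Its whole range over the 8 libraries was 0.55, the smallest of the 7 genes. Its levels in AG120_AZA and AG120 both averaged 8.43, and the 95% interval of the difference with AG120 over both AZA levels ran from -0.56 to 0.03 (limma adjusted p = 0.267). AZA and vehicle averaged 8.70 and 8.69. Uhrf1 exceeded Dnmt1 within every library, by 0.39 to 1.43 log2.

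Dnmt3a, a de novo methyltransferase, was the only member called in any comparison. It stood at 5.48 and 5.47 log2 CPM in AG120_AZA, 6.25 and 5.97 in AZA, 5.53 and 5.87 in AG120, and 6.81 and 6.26 in vehicle. The 4 groups did not overlap: vehicle was highest, then AZA, AG120 and AG120_AZA. The steps made by AZA were narrow: 6.25 in AZA lay next to 6.26 in vehicle, and 5.48 in AG120_AZA next to 5.53 in AG120. Replicates differed by 0.55 in vehicle, 0.34 in AG120 and 0.28 in AZA. The order of the 4 groups was not tested, and the share of all genes with 4 separate groups was not counted. With AG120 over both AZA levels Dnmt3a averaged 5.59 ± 0.19 log2 CPM, against 6.32 ± 0.35 without AG120 (SD, n = 4 each). It fell by 0.74 ± 0.18 (SE), to 0.599 of the level without AG120 (limma adjusted p = 0.0341), in a comparison where 2.47% of all genes were called lower. All 4 AG120 libraries lay below the 4 others, as they did for 5.99% of all genes.

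In the single comparisons the Dnmt3a difference was not called. The AG120 difference was -0.84 ± 0.26 (SE) against vehicle (limma adjusted p = 0.195) and -0.64 ± 0.26 for AG120_AZA against AZA (adjusted p = 0.213). Adding AZA gave -0.43 ± 0.26 (SE) against vehicle (limma adjusted p = 1) and -0.22 ± 0.26 on top of AG120 (adjusted p = 0.806). The first was -0.15 without vehicle replicate 1 and -0.70 without vehicle replicate 2, and the second -0.40 without AG120 replicate 1 and -0.05 without AG120 replicate 2. Both drugs against vehicle gave the widest gap, -1.07 ± 0.26 (limma adjusted p = 0.0541), or 0.478 of the vehicle level. The interaction of the drugs on Dnmt3a was 0.20, with an interval from -0.60 to 1.01, so these libraries leave its sign unresolved. The vehicle samples are shared by 3 of these comparisons and by the interaction.

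The Dnmt3a call rested on most of the libraries. Leaving out either AG120_AZA library ended it (difference -0.76 in both cases, limma adjusted p = 0.0754 and 0.0601). So did leaving out the first library of AZA (-0.70, adjusted p = 0.104), of AG120 (-0.65, adjusted p = 0.139) or of vehicle (-0.61, adjusted p = 0.0708). A fit without the mean-variance trend gave an adjusted p of 0.101. Over the 13 alternatives the difference stayed between -0.83 and -0.61, and 7 of them kept the call.

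**Figure D2:**
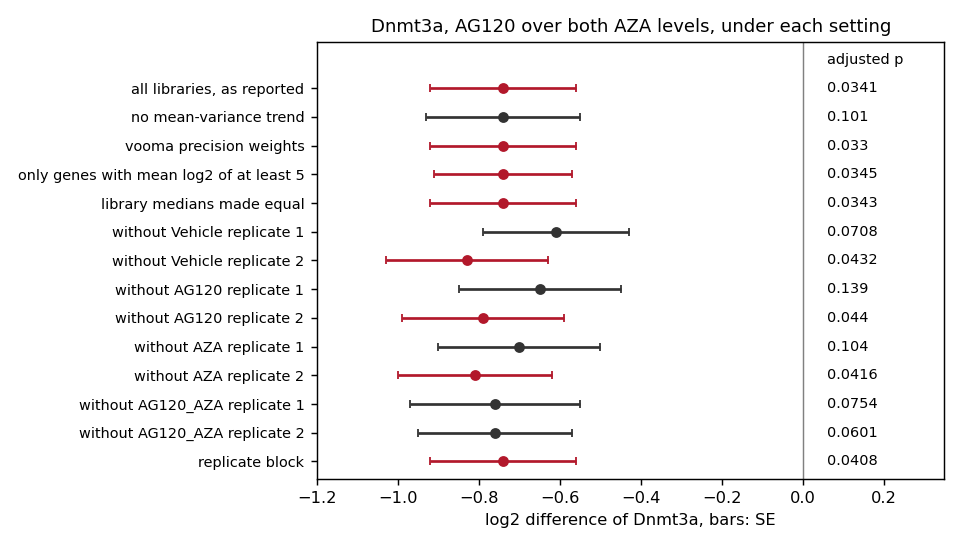
Log2 difference of Dnmt3a with AG120 over both AZA levels, with its SE as a bar, for the reported fit and 13 alternatives; red marks an adjusted p below 0.05, and the adjusted p stands at the right. Every difference lies between -0.83 and -0.61, and the adjusted p ranges from 0.033 to 0.139.

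The share of Dnmt3a among the methyltransferases also separated the libraries with AG120 from those without it. Dnmt3a made up 17.6% and 18.4% of the summed CPM of Dnmt1, Dnmt3a and Dnmt3b in AG120_AZA, 23.0% and 24.5% in AZA, 15.3% and 17.0% in AG120, and 29.3% and 22.7% in vehicle. The 4 libraries with AG120 lay between 15.3% and 18.4% and the 4 without it between 22.7% and 29.3%. Dnmt3a minus Dnmt1, a difference within a library that shifting the whole library cannot alter, ran from -2.39 to -2.07 with AG120 and from -1.69 to -1.16 without it. These shares rest on the same Dnmt3a values as the comparison above and were given no test.

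**Figure D3:**
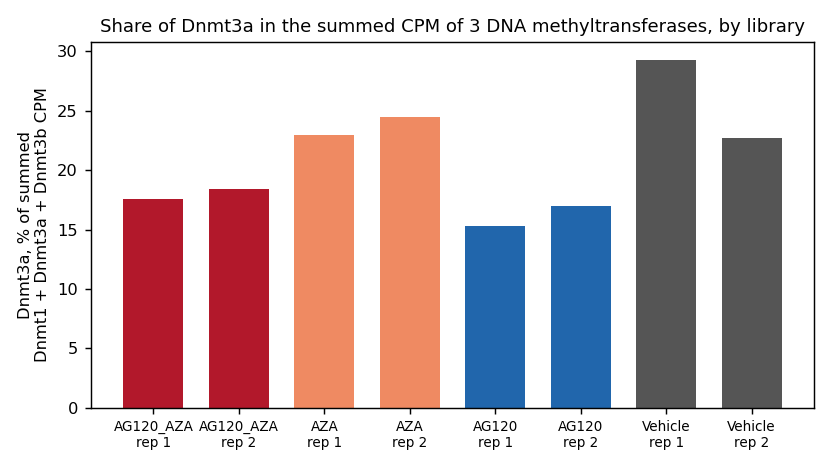
Dnmt3a as a percentage of the summed CPM of Dnmt1, Dnmt3a and Dnmt3b, a bar per library, by group. The 4 bars with AG120 stand at 15.3% to 18.4% and the 4 without it at 22.7% to 29.3%.

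Markers of several cell types moved with AG120 alongside Dnmt3a. Of 9 progenitor markers 6 fell with AG120 over both AZA levels (Kit, Cd34, Cd93, Meis1, Erg and Sox4). In that comparison 2.47% of all genes were called lower and 3.38% higher. The abundant progenitor markers Myb and Gata2 differed by 0.13 and 0.10, and the weakly expressed Flt3 by -3.22, and these were not called. The summed level of the 9 markers was 9.44 to 10.03 log2 CPM with AG120, against 10.31 to 10.81 without it. Cd34 fell by 2.40 ± 0.30 (SE) and Kit by 1.33 ± 0.27 (limma adjusted p = 0.00141 and 0.0162). Of 11 basophil, mast cell and eosinophil markers 7 rose (summed level 11.14 to 11.83 with AG120, 9.63 to 10.37 without), and of 13 erythroid markers 7 rose (9.79 to 12.13 with AG120, 10.83 to 12.28 without). The erythroid list was split: Klf1, an erythroid transcription factor, and Epor, the erythropoietin receptor, rose by 3.36 and 1.86, while the adult globins Hbb-bs, Hbb-bt, Hba-a1 and Hba-a2 differed by -0.80, -0.84, -0.79 and -0.50 and did not pass. Reads of the near-identical globin copies may be split between them. Of 9 measured monocyte and macrophage markers 5 fell (8.45 to 9.55 with AG120, 9.23 to 10.65 without), and of 12 neutrophil markers 2 fell (10.08 to 12.64 with AG120, 11.49 to 13.94 without). The summed level of the megakaryocyte markers was 9.04 to 11.92 log2 CPM with AG120 and 11.11 to 11.39 without it. The B cell list had only Cd79b of 5 markers in the table, and the T and NK cell list Cd3d and Nkg7 of 7, with none called. The part of cell composition in the Dnmt3a difference was not tested.

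Dnmt3b, the other de novo methyltransferase, stood at 3.68 and 3.41 log2 CPM in AG120_AZA, 3.46 and 4.34 in AZA, 3.70 and 3.44 in AG120, and 4.35 and 3.80 in vehicle. Each group overlapped its neighbour in the order of means, vehicle, AZA, AG120 and AG120_AZA. With AG120 over both AZA levels the difference was -0.43 ± 0.28 (SE), with a 95% interval from -1.03 to 0.17 (limma adjusted p = 0.378). That interval includes the Dnmt3a value of -0.74, and the difference between the 2 genes was not tested.

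Among the erasers, Tet2 was the most abundant in mean level. Its replicates differed by 1.75 in AZA and 0.80 in AG120_AZA, but by 0.47 in vehicle and 0.19 in AG120. It stood at 4.18 and 3.38 log2 CPM in AG120_AZA, 5.42 and 3.67 in AZA, 4.31 and 4.12 in AG120, and 4.38 and 3.91 in vehicle. AZA replicate 1 was the highest library by more than 1 log2 unit. All 4 groups overlapped in their order, and the interval of both drugs against vehicle ran from -1.51 to 0.77 (difference -0.37, limma adjusted p = 0.723). That difference was -0.77 without AG120_AZA replicate 1 and 0.03 without AG120_AZA replicate 2.

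Tet3 was highest in vehicle. Its levels were 3.44 and 3.52 log2 CPM in AG120_AZA, 2.97 and 3.23 in AZA, 3.21 and 3.65 in AG120, and 4.20 and 3.93 in vehicle. All 6 drug-treated libraries lay below both vehicle libraries for Tet3 and Dnmt3a, 2 of 7 members, as for 4.64% of all genes; this pattern was picked out after the values were seen. AZA against vehicle gave -0.97 ± 0.37 (SE) for Tet3, with a 95% interval from -1.78 to -0.15, but no gene was called there (limma adjusted p = 1 for Tet3, unadjusted p = 0.0245). AG120 against vehicle gave -0.64, both drugs against vehicle -0.59, and the interaction was 1.02 ± 0.53 (limma adjusted p = 0.802).

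Tet1 stood at -2.65 and 1.14 log2 CPM in AG120_AZA, 0.98 and 0.56 in AZA, 1.28 and 0.01 in AG120, and 1.97 and 0.72 in vehicle. The low AG120_AZA value was 2 steps above the lowest class of its library, and its partner was 10 steps above. The differences were accordingly imprecise: both drugs against vehicle gave -2.10, with an interval from -4.82 to 0.63, and leaving out single libraries moved it between -3.99 and -0.20. Changes of Tet1 within these intervals are not excluded by these libraries.

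**Figure D4:**
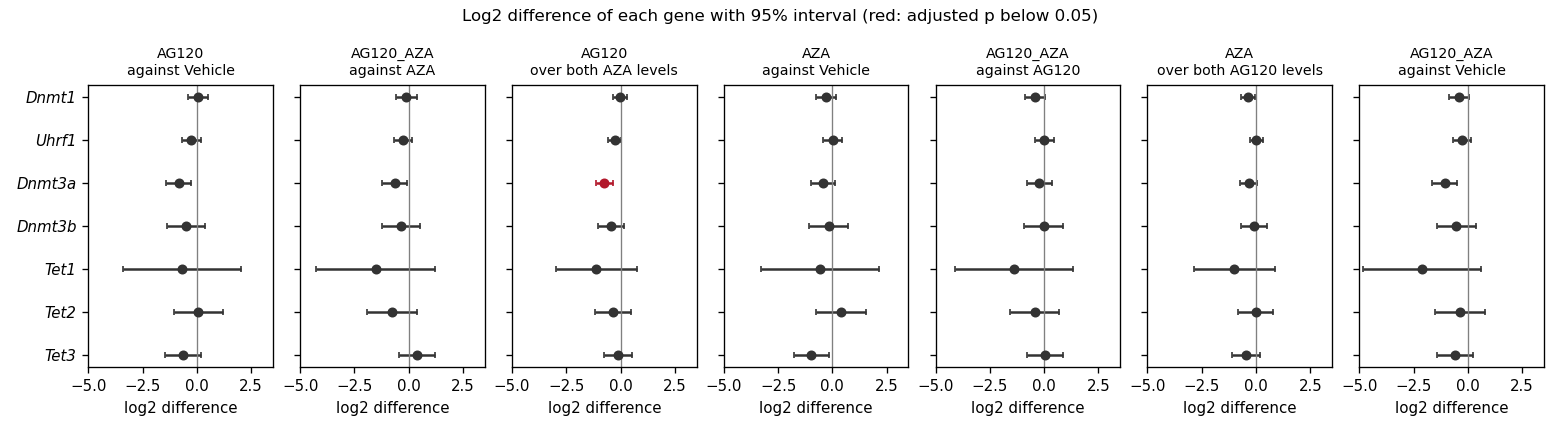
Log2 difference of each gene, with its 95% interval from limma, in 7 comparisons; red marks an adjusted p below 0.05. Dnmt3a with AG120 over both AZA levels (-0.74) is the only red point, and the Tet1 intervals are the widest.

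The 7 genes were also read together. All 7 differences were negative for AG120_AZA against vehicle, where 48.8% of all genes had a negative difference, with a median of -0.53 for the members and 0.02 for all genes; Tet2 turned positive without AG120_AZA replicate 2. None of the 7 was called there, where 3.02% of all genes were called, and 5 of 7 had no overlap between the groups on the lower side, against 23.9% of all genes. With AG120 alone against vehicle 4 of 7 were lower without overlap (22.8% of all genes), with 0 called (0.578% of all genes), and with AZA alone 3 of 7 (15.3%), with 0 called (0%). With AG120 over both AZA levels all 7 differences were negative (49.3% of all genes) and the member median was -0.35. Single omissions turned some of these signs: Dnmt1 and Tet2 were each at 0.09 without AZA replicate 1, and Tet3 was at 0.03 without vehicle replicate 1 and at 0.06 without AG120 replicate 1. With AZA over both AG120 levels 6 of 7 were negative (50% of all genes) and the median was -0.33, and alternatives turned the sign for Dnmt3b, Uhrf1 and Tet2. For AG120_AZA against AZA none of the 7 was called, where 2.26% of all genes were. These counts share libraries between comparisons, and the genes are not independent of each other.

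The ratio of writers to erasers in summed CPM overlapped between groups. The 3 methyltransferases summed to 253 and 241 CPM in AG120_AZA, 330 and 256 in AZA, 302 and 345 in AG120, and 384 and 339 in vehicle. The 3 TET genes summed to 29.2 and 24.1 CPM in AG120_AZA, 52.7 and 23.6 in AZA, 31.6 and 31.0 in AG120, and 43.2 and 31.9 in vehicle. The ratio of the sums was 8.69 and 9.99 in AG120_AZA, 6.27 and 10.9 in AZA, 9.54 and 11.1 in AG120, and 8.89 and 10.6 in vehicle. AZA replicate 1, the library with the high Tet2 value, had the lowest one.

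Genes with the most similar profile over the 8 libraries were sought among named genes with a mean of at least 5 log2 CPM, by the root mean square difference of profiles centred on their mean. For Dnmt3a these were Extl3 (0.12), Gm2a (0.134) and Ptpn18 (0.148), where Dnmt3a itself varied by 0.444 about its mean. Extl3 stood at 5.28 and 5.38 log2 CPM in AG120_AZA, 6.03 and 5.81 in AZA, 5.63 and 5.53 in AG120, and 6.65 and 6.09 in vehicle. For Dnmt1 they were Btf3 (0.089), Cnot1 (0.09) and Hmgb1 (0.103), for Uhrf1 Erp29 (0.069), Ypel1 (0.082) and Zdhhc18 (0.093), and for Dnmt3b Atp2a3 (0.149), Wasf2 (0.159) and Ninj1 (0.163). For Tet2 they were Sltm (0.28), Cd9 (0.293) and Siglecf (0.319), and for Tet3 Synrg (0.185), Iftap (0.194) and Eif3f (0.22). For Tet1 the closest, Dusp2, was still 0.846 away. No member was among the closest of another: Dnmt3b and Uhrf1 were the nearest pair of members, at 0.264.

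The wider machinery was read from 9 lists, given with AG120 over both AZA levels, where 3.38% of all genes were called higher and 2.47% lower and the median of all genes was 0.01. None of 12 partners of maintenance methylation passed (median -0.16). Cdca7, which activates the remodeler Hells, differed by -0.74 ± 0.26 (SE, limma adjusted p = 0.12), Dmap1, which binds Dnmt1, by 0.65 ± 0.22 (adjusted p = 0.103) and Zbtb24, an activator of Cdca7, by -0.41. Usp7, a deubiquitinase that binds Dnmt1, and Pclaf, a PCNA-bound protein that recruits Dnmt1 once ubiquitinated, differed by -0.08 and -0.34. None of 7 measured partners of de novo methylation passed (median -0.08). Setd2, which writes the histone mark that Dnmt3a and Dnmt3b read, differed by -0.47 ± 0.18 (adjusted p = 0.156), Nsd2 by -0.22, Trim28 by 0.21 and Nsd1 by -0.08.

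Of 14 measured TET partners and suppliers of cofactors, Cxxc5 and Idh2 fell and none rose (median -0.06). Cxxc5, a CXXC zinc finger protein related to the DNA-binding domain of the TET family, stood at 5.56 and 5.77 log2 CPM in AG120_AZA, 6.44 and 6.27 in AZA, 5.50 and 5.16 in AG120, and 7.26 and 6.05 in vehicle. All 4 libraries with AG120 lay below the 4 without it, and Cxxc5 fell by 1.01 ± 0.25 (SE, limma adjusted p = 0.0396). That call was lost when the first AG120_AZA library (adjusted p = 0.0872), either AZA library (0.0933 and 0.058) or either AG120 library (0.113 and 0.079) was left out, and without the mean-variance trend (0.135). Idh2, a mitochondrial isocitrate dehydrogenase that makes 2-oxoglutarate, stood at 8.50 and 8.47 in AG120_AZA, 9.29 and 8.92 in AZA, 8.65 and 8.88 in AG120, and 9.31 and 9.24 in vehicle. Its fall of 0.56 ± 0.13 (limma adjusted p = 0.0317) was kept without AG120 replicate 2 (0.0332) or AZA replicate 2 (0.0324) and lost in the other 6 omissions (adjusted p from 0.052 to 0.132) and without the trend (0.119). The other isocitrate dehydrogenase genes of the list, Idh1, Idh3a, Idh3b and Idh3g, differed by 0.03, -0.18, -0.14 and 0.12 and did not pass. Ogt, a glycosyltransferase that binds TET proteins, differed by -0.07 and did not pass. Gadd45g, a stress gene tied to DNA repair, had the smallest p of the list with AZA over both AG120 levels, with a difference of 1.25 ± 0.29 (limma adjusted p = 0.771).

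The methyl donor cycle, which supplies S-adenosylmethionine, had 2 of 11 measured genes higher and none lower with AG120 over both AZA levels (median 0.12). Mthfd1, a cytosolic folate enzyme, stood at 6.44 and 6.31 log2 CPM in AG120_AZA, 4.89 and 5.23 in AZA, 5.99 and 5.77 in AG120, and 5.50 and 5.45 in vehicle. It rose by 0.86 ± 0.21 (SE, limma adjusted p = 0.0352), and by 1.31 ± 0.24 for AG120_AZA against AZA (adjusted p = 0.0201). The first call was kept without vehicle replicate 1 or AG120 replicate 2 and lost in the other 6 omissions (adjusted p from 0.0512 to 0.109). The second was lost without AZA replicate 1 (0.174) or AG120_AZA replicate 2 (0.131). Without the trend the adjusted p was 0.111 for the first and 0.104 for the second. Adk, adenosine kinase, which clears the adenosine made by the cycle, stood at 7.39 and 7.45 in AG120_AZA, 6.27 and 6.94 in AZA, 7.40 and 6.98 in AG120, and 6.75 and 6.47 in vehicle. It rose by 0.70 ± 0.18 (limma adjusted p = 0.0434), a call lost without either AG120_AZA library (adjusted p = 0.103 and 0.0982), the first AZA (0.124) or AG120 library (0.158) or the second vehicle library (0.0991). With the replicate number as a block its adjusted p was 0.0542, and without the trend 0.136. Shmt2, the mitochondrial serine hydroxymethyltransferase, differed by 0.57 ± 0.18 and did not pass (adjusted p = 0.0777), and Shmt1, its cytosolic counterpart, differed by -0.01.

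None of 11 measured genes of base excision repair, which replaces the oxidised bases made by TET enzymes, passed (median -0.01). Mbd4, a thymine glycosylase, differed by -0.69 ± 0.33 (SE, limma adjusted p = 0.241), Xrcc1 by 0.66, Neil1 by -0.45, Ung by -0.15 and Smug1 by 0.12. None of 7 methyl-CpG readers passed either (median -0.02). Zbtb4, a weakly expressed reader at a mean of 1.47 log2 CPM, differed by -1.55 ± 0.69 (adjusted p = 0.205), Mbd1 by -0.33 and Mbd2 by 0.06.

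Of 24 germline and imprinted genes that methylation is known to silence, 5 were in the table (Sycp3, Xlr4a, Xlr4b, Xlr4c and Mest), and none was called with AG120 or AZA over the levels of the other drug. Xlr4c, an X-linked gene of the Xlr family, stood at 3.60 and 3.35 log2 CPM in AG120_AZA, -2.25 and -3.43 in AZA, 1.28 and 0.56 in AG120, and 3.16 and 2.31 in vehicle. It was 6.32 ± 0.79 (SE) higher in AG120_AZA than in AZA (limma adjusted p = 0.00376), lost without AG120_AZA replicate 2 (0.0596) and with vooma weights (0.0731). AZA replicate 2 was at the lowest value of its library, so this difference depends on the offset added to counts and is no measure of size, and reads shared among the near-identical Xlr4 copies make the gene of origin uncertain. Xlr4a averaged -0.48 log2 CPM, while Xlr4b averaged 5.56 and differed by 0.18 with AG120 over both AZA levels, Mest by 0.24 and Sycp3 by 0.53.

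**Figure D5:**
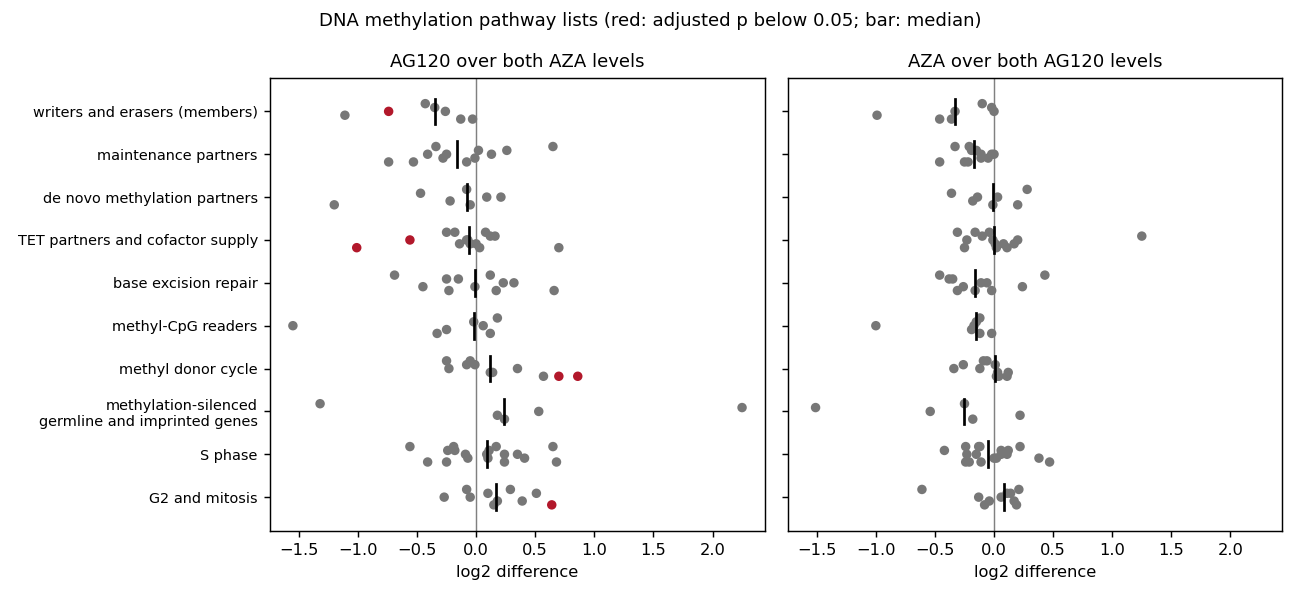
Log2 difference of each gene of the 7-member set and of 9 wider lists, with AG120 over both AZA levels at left and AZA over both AG120 levels at right; red marks an adjusted p below 0.05 and a bar the median of the list. Dnmt3a, Cxxc5 and Idh2 are red on the lower side and Mthfd1, Adk and Cdc20 on the higher side with AG120, and no gene is red with AZA.

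Cell cycle genes are given because Dnmt1 and Uhrf1 are known to be highest in S phase. None of 18 S phase genes was called with AG120 over both AZA levels (median 0.10), and their summed level was 11.75 to 11.86 log2 CPM with AG120 and 11.69 to 11.94 without it. Tyms differed by 0.65 ± 0.18 (SE, limma adjusted p = 0.0558), Gins2 by -0.56, Cdc6 by 0.41 and Pola1 by -0.24. Ccne1, cyclin E1, rose by 1.16 ± 0.27 with both drugs against vehicle (limma adjusted p = 0.0447), a call kept only without AZA replicate 1 (0.0445) or AZA replicate 2 (0.0482) among the 8 omissions. It was also lost without the trend (adjusted p = 0.127), with a minimum mean of 5 log2 CPM (0.0547) and with the compared groups alone (0.0817). Of 10 genes of G2 and mitosis Cdc20, an activator of the anaphase-promoting complex, rose by 0.64 ± 0.16 with AG120 over both AZA levels (adjusted p = 0.0388), kept without vehicle replicate 1 (0.0227) or AG120 replicate 2 (0.0318) and lost in the other 6 omissions (0.0703 to 0.12) and without the trend (0.13). It also rose by 0.91 ± 0.20 for AG120_AZA against AZA (adjusted p = 0.045), kept without either vehicle library (0.0461 and 0.0442) and lost in the other 6 omissions (0.0581 to 0.281). That second call was also lost without the trend (adjusted p = 0.178), with the minimum mean (0.0597), with the compared groups alone (0.0732) and with the replicate block (0.0589). The summed level of that list was 11.04 to 11.42 with AG120 and 11.05 to 11.14 without it, and Ccnb1, Plk1, Mki67 and Bub1 differed by 0.51, 0.39, 0.29 and -0.08 without passing.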

How the data were processed

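The submitters' processing notes name edgeR 3.28.1, limma 3.42.2 and R 3.6.2, HISAT2 2.1.0 with build mm10, Subread 1.6.3 with featureCounts, and also cutadapt 1.14 and bcl2fastq 2.17.1.14, without roles or settings. The authors deposited log2 CPM values for 12294 genes in 8 libraries, scaled so that 2 to the power of the values sums to between 999525 and 999562 per library. Such scaling hides depth; the median gene lay at least 105 to 149 steps above the lowest value. No further scaling or filter was applied.

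Differences were fitted with limma 3.58.1 in R 4.3.3 (lmFit, eBayes with trend) on the whole table. A model of 4 group means (4 residual, 7.06 prior degrees of freedom) gave 5 pairwise comparisons and the interaction, and an additive model (5 residual, 6.85 prior) gave each drug over both levels of the other. The p-values are two-sided and adjusted by Benjamini-Hochberg over 12294 genes. Named were all 7 members, the 3 genes of closest profile, and from each list the called genes and the 3 with the smallest p for each drug; a few of these genes are not reported here. The code was tested on simulated data. Members, lists and alternatives were chosen with earlier results of these data known. Of the symbols, 12064 (98.1%) matched GENCODE M21. Alternatives were no trend, vooma weights, a minimum mean of 5, equal medians, the compared groups alone, each library left out, and a replicate block.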

Additional observations from a re-analysis of the deposited data

How the results depend on the processing

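Of 731 refitted values of the 7 genes, 47 changed sign and 6 changed call; no called value changed sign, and the 6 are the lost Dnmt3a calls with AG120 over both AZA levels. Accordingly the number of members called there was 0 without the mean-variance trend and between 0 and 1 when single libraries were left out, against 1 as reported; the cause was not tested. In the other 7 comparisons 0 members were called under every alternative run. Tet1, Tet2, Tet3 and Dnmt3b were not fitted with a minimum mean of 5 log2 CPM.

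The labels give replicate numbers 1 and 2 in each group but no shared mouse or day. Deviations of equal numbers correlated at 0.489 between vehicle and AG120 and at 0.37 between AZA and AG120_AZA, but between -0.194 and -0.0592 in the other 4 pairs of groups. The numbers were not taken to pair libraries over all groups. The higher correlations join groups at the same AZA level. The replicate block gives the same shift to every group, so pairing within an AZA level was not tested. With the replicate block 1 member was called with AG120 over both AZA levels (Dnmt3a, limma adjusted p = 0.0408) and 0 elsewhere.

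Counts of called genes moved by more than 1.5 times; the minimum mean left 4760 genes to test. With AG120 over both AZA levels they were 211 without the trend, 369 of 4760 with the minimum mean and from 201 to 771 over omissions, against 719. For both drugs against vehicle they were 43, 82 and 37 to 727, and 200 with the compared groups alone, against 371. For AG120_AZA against AZA they were 9, 67 and 14 to 594, against 278. For AG120 against vehicle they were 0, 23 and 8 to 103, 39 with vooma and 18 with the compared groups alone, against 71. The counts for AG120_AZA against AG120 and the interaction were 0 as reported and above 0 when certain single libraries were left out. AZA against vehicle had 2 without the trend, against 0.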
